A study of Homo sapiens with 6 samples.

Results

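The RNAs described here are those of the NF-kappaB subunits and of the genes that NF-kappaB induces to restrain itself, measured in leukaemia cells cultured with or without an inhibitor of CDK4 and CDK6. The set holds 10 genes, chosen by name with earlier results of these data known. They are the subunit genes NFKB1, NFKB2, REL, RELA and RELB, the inhibitor genes NFKBIA, NFKBIE and NFKBIZ, and the feedback genes TNFAIP3 and BIRC3. All probe sets whose annotation gave 1 of these symbols and no other were taken, which made 19 of 54613 probe sets and 9 of 19775 genes. BIRC3, an inhibitor of apoptosis with ubiquitin ligase activity, was not analysed here because no probe set carried its symbol in the annotation used. Each gene was represented by its probe set with the highest mean intensity over the 6 arrays, and the other probe sets are given beside it.

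The cells were KOPTK1, an established human line of T-cell acute lymphoblastic leukaemia (T-ALL). They were cultured for 48 h with 1 µM PD0332991 (n = 3) or with vehicle (n = 3). Labelled material prepared from total RNA was hybridised to 1 one-colour Affymetrix array per culture. PD0332991, also known as palbociclib, blocks CDK4 and CDK6, the kinases that act with D-type cyclins to drive cells into S phase. The submitters call the cultures biological triplicates of this 1 line. The design implies 1 comparison, PD0332991 against vehicle.

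NF-kappaB is a family of dimeric transcription factors that control survival, inflammatory and immune genes in lymphocytes. In resting cells the dimers are held in the cytoplasm by IkappaB proteins, and receptors for antigen or for cytokines such as TNF release them by activating the IKK kinases, which mark IkappaB for destruction. The freed dimers induce their own inhibitors, among them NFKBIA and TNFAIP3, which closes a negative feedback loop. A slower, non-canonical branch works through RELB and the processed product of NFKB2. The pathway is known to be active in many T-ALL cells downstream of NOTCH1. Most of this control acts on proteins and their place in the cell, and arrays measure RNA only.

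Sites like those that NF-kappaB binds lay near an annotated start in genes that rose, in NFKB2, which fell, and in genes that did not pass the test. The motifs GGGNNNTTCC and GGGNNTTCC, patterns of the kind that NF-kappaB dimers bind, were searched on both strands of the RefSeq windows of GRCh38.p14 that run from 250 bases before to 50 bases after an annotated start of a gene. Such a start need not be the outer end of the gene: among others, the only TNFAIP3 window and the NFKB2 window shown here lie inside the gene spans given further on. Matches of the motifs can overlap each other. Of the 10 genes, 8 had a window, and 7 of these 8 had a match in at least 1 window. A match was found in 9 of their 13 windows, against 11.0% of all 35116 windows. The motifs were chosen after these sequences were seen, the genes are known parts of the feedback loop, and several windows can belong to 1 gene. These shares are therefore a description and not a test. GGGNNNTTCC was found in 6.52% and GGGNNTTCC in 6.58% of all windows, and some windows held both. RELA had no match in either of its windows. RELB and NFKBIE had no window. The stretches below are shown because they allow the promoters of genes with different changes to be read side by side, 5′ to 3′ on the gene's strand, with matched bases in capitals.
TNFAIP3 (rose; chr6:137867167-137867238, plus strand): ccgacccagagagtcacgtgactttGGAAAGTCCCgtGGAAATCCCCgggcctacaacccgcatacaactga
NFKB1 (rose; chr4:102501285-102501344, plus strand): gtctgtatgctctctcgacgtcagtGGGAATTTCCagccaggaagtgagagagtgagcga
NFKB2 (fell, the second of its 3 windows; chr10:102394446-102394534, plus strand): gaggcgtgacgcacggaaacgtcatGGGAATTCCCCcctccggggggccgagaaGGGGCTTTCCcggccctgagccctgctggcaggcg
REL (did not pass; chr2:60881502-60881562, plus strand): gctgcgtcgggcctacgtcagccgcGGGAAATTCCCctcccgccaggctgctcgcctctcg
NFKBIA (did not pass; chr14:35404796-35404855, minus strand): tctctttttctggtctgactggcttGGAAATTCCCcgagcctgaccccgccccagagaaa
NFKBIZ (1 of 2 probe sets rose, the first of its 2 windows; chr3:101827742-101827801, plus strand): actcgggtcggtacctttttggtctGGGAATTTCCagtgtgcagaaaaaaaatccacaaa
TNFAIP3 had 2 separate sites, at 67 and 55 bases before the start of its window by their first base, and both read as the motif on the opposite strand. NFKB2 also had 2 sites in the stretch shown. A match is a description of these letters and does not show that a dimer binds there.

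Of the 9 measured genes, 3 were higher with PD0332991 (TNFAIP3, RELB and NFKB1), 1 was lower (NFKB2) and 5 did not pass the test (REL, RELA, NFKBIA, NFKBIE and NFKBIZ). The threshold was a limma adjusted p of 0.05 over all genes, and fold changes are on the scale of log2(intensity + 16). The 3 higher genes are 33.3% of those measured, against 15.6% of all 19775 genes, and the 1 lower gene is 11.1%, against 13.6% of all genes. In either direction 29.3% of all genes were called. The arrays of the groups did not overlap for 6 of the 9 genes (66.7%), against 43.0% of all genes. The median log2 fold change was 0.07 over the 9 genes and 0.01 over all genes. With so few genes, these shares describe the set and single out nothing about it.

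Median intensities lay between 49.1 and 54.3 over the 6 arrays. Across genes, which are not independent replicates, Pearson r was 0.993 to 0.996 between replicates and 0.976 to 0.979 between a PD0332991 and a vehicle array. All 10 defining markers of T cells and thymocytes, such as CD3D and LCK, had mean intensities above the median of all values, and 6 of the 10 were higher with PD0332991. Their summed intensity was 34191 to 35223 with PD0332991 and 27890 to 30349 with vehicle. Of 7 measured B cell markers, 3 lay above the median (CD79A, BLK and CD22), and the sum was 1126 to 1295 with PD0332991 and 789 to 892 with vehicle. Most of that difference was CD79A, which averaged 543 with PD0332991 and 275 with vehicle. CD79A and BLK were the 2 of the 7 that were called. Of 8 fibroblast and endothelial markers, 1 lay above it (PECAM1), with sums of 2107 to 2189 with PD0332991 and 1480 to 1636 with vehicle. Nearly all of that difference was PECAM1, which averaged 1912 with PD0332991 and 1301 with vehicle and was the only 1 of the 8 called. Of 7 measured myeloid markers, 1 lay above it (MPO), with sums of 287 to 292 with PD0332991 and 295 to 310 with vehicle. MPO was called lower, and CD163, which averaged 17.3 with PD0332991 and 8.77 with vehicle, was called higher. CD14, the lowest of the myeloid markers, averaged 5.20, and CDH5, the lowest of the fibroblast and endothelial markers, 5.62. The part of these shifts in the results below was not tested, and in bulk RNA fewer cells with a given RNA and less of it per cell cannot be told apart.

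**Figure D1:**
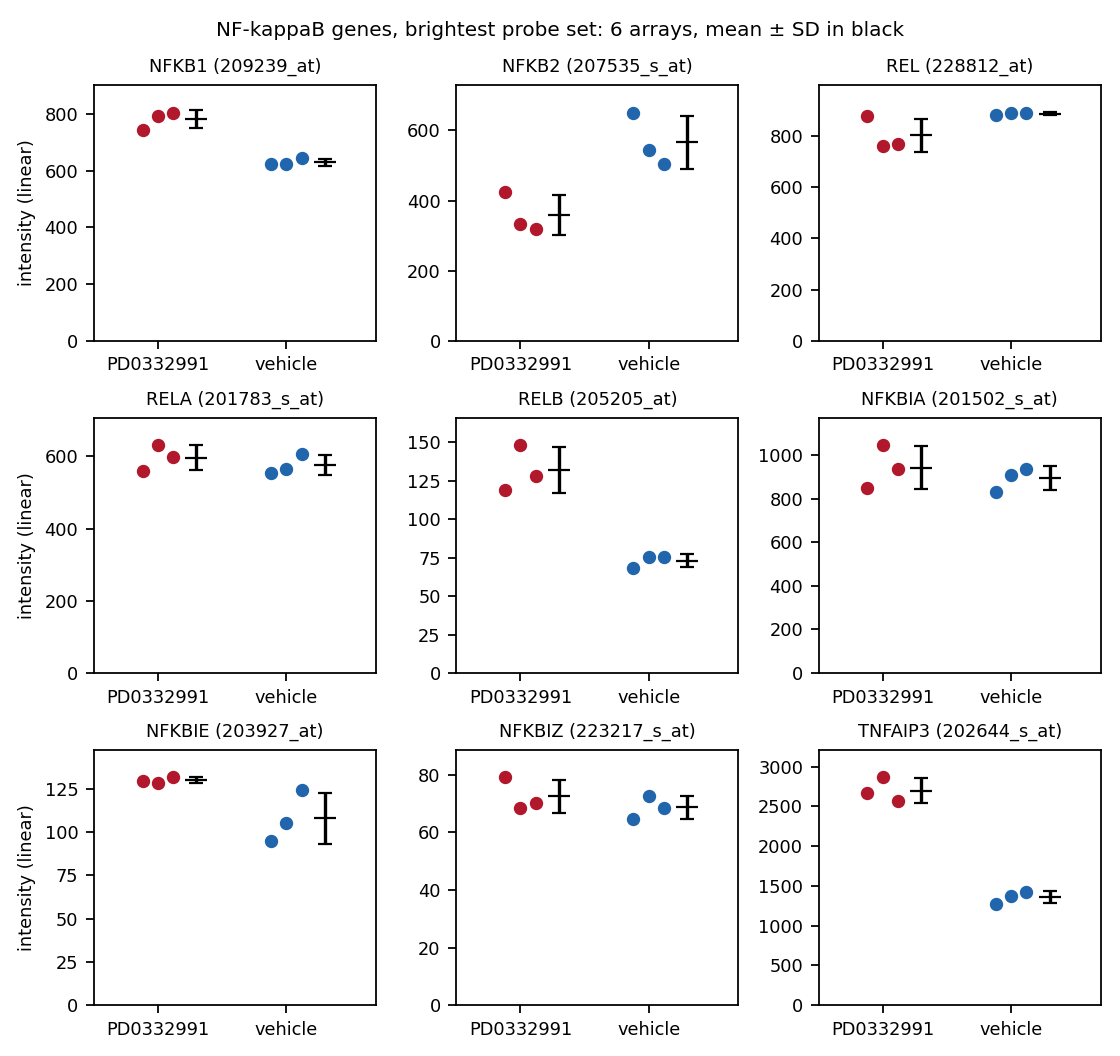
Intensity on a linear axis from 0 for the brightest probe set of each of the 9 genes, with 1 point per array, PD0332991 left of vehicle, and the mean ± SD (n = 3) in black. The points of the groups are apart for TNFAIP3, RELB, NFKB1, NFKBIE, NFKB2 and REL and overlap for RELA, NFKBIA and NFKBIZ.

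TNFAIP3, which encodes the ubiquitin-editing enzyme A20, a brake on signalling to IKK, had the largest change of the 9 genes. The gene lies on chromosome 6, from 137866349 to 137883312 in GRCh38.p14. Its brightest probe set, 202644_s_at, read 2664, 2867 and 2567 with PD0332991, against 1277, 1375 and 1428 with vehicle. Every PD0332991 array lay far above every vehicle array. The means were 2700 ± 153 with PD0332991 and 1360 ± 76.6 with vehicle (SD, n = 3 each). TNFAIP3 rose by 0.98 on the log2 scale, with an SE of 0.07 and a 95% interval of 0.80 to 1.16 (limma adjusted p = 2.63e-04), or 1.97-fold. Of all genes, 1.60% had a higher log2 fold change. The other probe set of TNFAIP3, 202643_s_at, read 1881, 1865 and 1767 with PD0332991, against 785, 797 and 891 with vehicle. It gave a log2 fold change of 1.14 (SE 0.08) and a limma adjusted p of 2.74e-04 over all probe sets, so the probe sets rose together.

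RELB encodes the subunit that carries a transactivation domain in the non-canonical branch. Its only probe set, 205205_at, read 119, 148 and 128 with PD0332991, against 68.1, 75.6 and 75.5 with vehicle. The groups did not overlap, and the lowest PD0332991 array lay well above the highest vehicle array. The means were 132 ± 15.0 with PD0332991 and 73.1 ± 4.31 with vehicle (SD, n = 3 each). RELB rose 1.66-fold, or by 0.73 on the log2 scale with an SE of 0.09 and a 95% interval of 0.51 to 0.95 (limma adjusted p = 0.00185). RELB, on chromosome 19 from 45001464 to 45038192, was dim enough for the pseudocount to matter: its log2 fold change was 0.84 with a pseudocount of 1 and 0.51 with a pseudocount of 64, and it passed with both.

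NFKB1 encodes p105, the precursor of the DNA-binding subunit p50, and lies on chromosome 4 from 102501359 to 102617302. Probe set 209239_at read 745, 793 and 805 with PD0332991, against 622, 623 and 645 with vehicle. All 3 PD0332991 arrays lay above all 3 vehicle arrays, by a small margin next to that of TNFAIP3. NFKB1 averaged 781 ± 31.6 with PD0332991 and 630 ± 13.1 with vehicle (SD, n = 3 each). The log2 fold change was 0.30 (SE 0.06, 95% interval 0.16 to 0.44, limma adjusted p = 0.00988), or 1.23-fold, and 16.2% of all genes had a higher one.

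NFKB2, which encodes p100, the precursor of p52 and an inhibitor of RELB until it is processed, moved the other way from RELB and NFKB1. Its brightest probe set, 207535_s_at, read 425, 334 and 320 with PD0332991, against 651, 544 and 504 with vehicle. All PD0332991 arrays were below all vehicle arrays, but both groups were spread widely. The means were 360 ± 56.9 with PD0332991 and 567 ± 75.7 with vehicle (SD, n = 3 each), and NFKB2 fell by 0.64 on the log2 scale (SE 0.14, 95% interval −0.98 to −0.29, limma adjusted p = 0.0178). The call ended when any of several arrays was left out: the adjusted p of NFKB2 was 0.0619 and 0.0608 without PD0332991 replicate 2 or 3, and 0.0543 and 0.0509 without vehicle replicate 1 or 2. The other probe sets did not show it. Of the dim probe sets of NFKB2, 209636_at averaged 22.4 ± 2.02 with PD0332991 and 18.6 ± 6.15 with vehicle (log2 fold change 0.16), and 211524_at averaged 3.91 ± 2.20 with PD0332991 and 6.76 ± 4.63 with vehicle (log2 fold change −0.18; SD, n = 3 each). Neither passed, and both lay near or below the pseudocount of 16, where a level cannot be told from background. NFKB2 lies on chromosome 10 from 102394110 to 102402529.

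The log2 value of NFKB1 minus that of NFKB2 was 0.79 to 1.29 on the PD0332991 arrays and −0.06 to 0.35 on the vehicle arrays. Differences like these compare changes, not the levels of the genes. The mean difference between the groups was 0.94, with an exact permutation p of 0.1, two-sided, the smallest that 3 against 3 arrays allow. This was 1 of 3 such pairs, chosen after their values were seen, and the p adjusted over the 3 pairs was 0.1 for each.

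RELA and REL encode the canonical subunits with a transactivation domain, p65 and c-Rel, and neither passed the test. RELA, on chromosome 11 from 65653601 to 65663857, read 561, 632 and 597 with PD0332991 on probe set 201783_s_at, against 554, 566 and 607 with vehicle. The groups overlapped, with a log2 fold change of 0.05 (95% interval −0.12 to 0.22, limma adjusted p = 0.669). Its other probe set, 209878_s_at, averaged 238 ± 50.5 with PD0332991 and 200 ± 28.5 with vehicle (SD, n = 3 each), and its log2 fold change of 0.22 did not pass.

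REL, on chromosome 2 from 60881574 to 60931612, had 5 probe sets. On the brightest, 228812_at, REL read 878, 761 and 769 with PD0332991, against 881, 890 and 891 with vehicle. The groups were barely apart, since PD0332991 replicate 1 lay at the level of the vehicle arrays while the other PD0332991 arrays lay lower. The log2 fold change of REL was −0.14 (SE 0.07, 95% interval −0.32 to 0.03, limma adjusted p = 0.201). Without PD0332991 replicate 1 it was −0.21 (adjusted p = 0.0469). The other 4 probe sets of REL had log2 fold changes from −0.22 to 0.03, and none of the 5 passed over all probe sets, with unadjusted p-values from 0.0946 to 0.778.

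**Figure D2:**
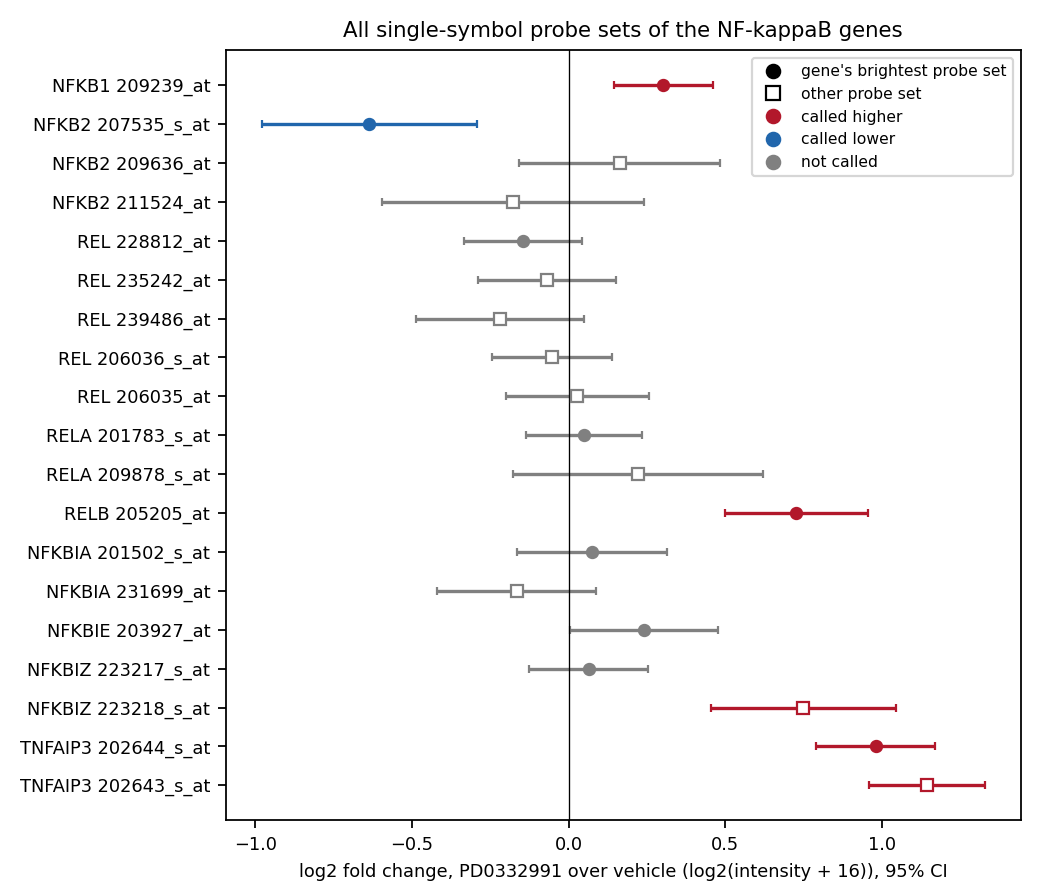
Log2 fold change, PD0332991 over vehicle, with its 95% interval for each of the 19 probe sets; filled circles are each gene's brightest probe set, open squares the others, and colours show the call over all probe sets. The 5 higher probe sets belong to TNFAIP3, RELB, NFKBIZ and NFKB1, and the 1 lower probe set to NFKB2.

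Of the genes for IkappaB proteins, none passed on its brightest probe set. NFKBIA encodes IkappaB-alpha, an inhibitor that active NF-kappaB induces rapidly, and lies on chromosome 14 from 35401513 to 35404749. Probe set 201502_s_at read 848, 1048 and 936 with PD0332991, against 832, 911 and 939 with vehicle. The groups overlapped throughout, with means of 944 ± 100 with PD0332991 and 894 ± 55.3 with vehicle (SD, n = 3 each). The log2 fold change was 0.07 (95% interval −0.16 to 0.31, limma adjusted p = 0.635). The dim probe set 231699_at of NFKBIA averaged 46.1 ± 6.35 with PD0332991 and 53.5 ± 5.62 with vehicle, a log2 fold change of −0.17 that did not pass.

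TNFAIP3 and NFKBIA are both classic feedback targets, and their changes were compared directly. The log2 value of TNFAIP3 minus that of NFKBIA was 1.44 to 1.63 on the PD0332991 arrays and 0.59 to 0.61 on the vehicle arrays, so every PD0332991 array was higher. The difference between the groups was 0.91 (exact permutation p = 0.1, two-sided, the smallest possible here). For RELB minus RELA the difference between the groups was 0.68, with the same p, and the arrays did not overlap either. Both pairs were chosen after their values were seen, so these differences and p-values are a description and not a test.

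NFKBIE encodes IkappaB-epsilon, another cytoplasmic inhibitor, and lies on chromosome 6 from 44258166 to 44265551. Its probe set, 203927_at, read 130, 128 and 132 with PD0332991, against 94.8, 105 and 124 with vehicle. The PD0332991 arrays were close together and all above the vehicle arrays, which were spread out. The log2 fold change of NFKBIE was 0.24 (SE 0.09, 95% interval 0.01 to 0.47) and did not pass (limma adjusted p = 0.113, unadjusted p = 0.0419). It was 0.33 without vehicle replicate 3, the highest of the vehicle arrays (adjusted p = 0.0192).

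NFKBIZ encodes IkappaB-zeta, a nuclear protein that acts on NF-kappaB bound to DNA and can activate as well as repress. The gene lies on chromosome 3 from 101827990 to 101861022, and its 2 probe sets differed. The brighter one, 223217_s_at, read 79.2, 68.6 and 70.2 with PD0332991, against 64.8, 72.8 and 68.6 with vehicle, and the groups overlapped (log2 fold change 0.06, limma adjusted p = 0.584). The dimmer one, 223218_s_at, read 64.6, 56.3 and 74.7 with PD0332991, against 30.4, 27.9 and 38.7 with vehicle. There all PD0332991 arrays were above all vehicle arrays, with a log2 fold change of 0.75 (SE 0.12) and a limma adjusted p of 0.00743 over all probe sets. The mean of both probe sets gave 0.41 (adjusted p = 0.00973), so the call for NFKBIZ depends on how probe sets are combined.

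Over the 19 probe sets, 5 were higher and 1 lower at a limma adjusted p of 0.05 over all probe sets, which is 26.3% and 5.26%, against 10.7% and 10.2% of all 54613 probe sets. Probe sets of 1 gene share their RNA and are not independent.

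The further lists held other genes of the pathway by role, and the shares of all genes given above are their background. The lists were drawn up with earlier results of these data known, so their shares describe them and are not a test. Among other inhibitors and negative regulators, 7 of 16 measured genes rose (43.8%, against 15.6% of all genes) and 1 fell (6.25%, against 13.6%). The other 8 were not called, and the median log2 fold change of the list was 0.22. CYLD, a deubiquitinase that removes the chains on which IKK activation depends, read 642, 639 and 610 with PD0332991, against 263, 262 and 274 with vehicle. The groups of CYLD were far apart, and it rose 2.29-fold, or by 1.19 on the log2 scale with an SE of 0.05 (limma adjusted p = 5.00e-05). Of its other 6 probe sets 3 rose and none fell, and the mean of all its probe sets gave 0.63. PDLIM2, a nuclear ubiquitin ligase for p65, rose by 0.74 on its brighter probe set, but its other probe set was not called and the mean of both gave 0.42. RNF11, a partner of A20, rose by 0.56 on the log2 scale. OTULIN, which removes linear ubiquitin chains, fell by 0.61 on the log2 scale, with 489, 456 and 430 with PD0332991, against 709, 674 and 736 with vehicle. The other probe sets of OTULIN were not called, and the mean of all its probe sets gave −0.50 (limma adjusted p = 0.0135). NFKBIB, which encodes IkappaB-beta, had a log2 fold change of −0.25 and did not pass (adjusted p = 0.0664).

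Among the kinases and adaptors upstream, 6 of 22 measured genes rose (27.3%, against 15.6% of all genes) and 1 fell (4.55%, against 13.6%). The other 15 were not called, and the list's median log2 fold change was 0.04. The catalytic IKK gene IKBKB rose by 0.33 on the log2 scale with an SE of 0.07 (limma adjusted p = 0.0136), and it was no longer called with vehicle replicate 2 left out (adjusted p = 0.0516) or by the mean of its probe sets, which gave 0.21 (adjusted p = 0.0522). CHUK, the other catalytic IKK gene, was at −0.14 and IKBKG, the regulatory subunit gene, at 0.08, and neither passed. IKBKE, an IKK-related kinase gene, rose by 0.76 on the log2 scale, with 328, 357 and 349 with PD0332991, against 199, 184 and 209 with vehicle. TRAF1, an adaptor gene that NF-kappaB itself induces, rose by 0.70, with 78.3, 88.4 and 79.3 with PD0332991, against 35.2, 43.1 and 55.8 with vehicle, and its log2 fold change was 0.43 with a pseudocount of 64. The other probe set of TRAF1 was not called, and the mean of both gave 0.56 (limma adjusted p = 0.0202). MYD88, the adaptor of Toll-like and interleukin-1 receptors, rose by 0.48. The gene that fell was MALT1, a protease and scaffold that works with BCL10 to link the T cell receptor to IKK. MALT1 read 278, 252 and 250 with PD0332991, against 443, 432 and 428 with vehicle, so the groups were apart. It fell by 0.71 on the log2 scale (SE 0.06, limma adjusted p = 5.17e-04), and both of its other probe sets fell as well.

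Among receptors that signal to NF-kappaB, 5 of 19 rose (26.3%, against 15.6% of all genes) and 1 fell (5.26%, against 13.6%). The other 13 were not called, and the list's median log2 fold change was 0.15. The number that rose was 3 without PD0332991 replicate 3 or vehicle replicate 1 or 2, and 2 without PD0332991 replicate 2. IL18R1, a chain of the interleukin-18 receptor, read 710, 633 and 610 with PD0332991, against 224, 245 and 276 with vehicle. Its groups were far apart, and it rose by 1.34 on the log2 scale with an SE of 0.10 (limma adjusted p = 2.53e-04). TLR3 rose by 0.85 on the log2 scale. Of its other probe sets 1 rose and none fell. TLR3 was at 0.68 on its probe set with the highest mean log2 value and at 0.65 by the mean of its probe sets, and passed with both. TLR1 was at 0.93 from vehicle values of 6.07, 11.2 and 21.2, below the pseudocount on 2 of the 3 arrays, and its adjusted p was 0.0508 without PD0332991 replicate 2. The log2 fold change of TLR1 was 1.63 with a pseudocount of 1 and 0.41 with a pseudocount of 64. TNFRSF1A, the main TNF receptor gene, at 0.31 and TLR9 at 0.48 completed the genes that rose and were named after their values were seen. TNFRSF1A lost its call without PD0332991 replicate 2 or 3 or vehicle replicate 1 or 2 (adjusted p 0.0573 to 0.0640), and TLR9 lost it without any one array other than vehicle replicate 3 (0.0662 to 0.126), with a pseudocount of 1 (0.0626) and adjusted over all probe sets (0.0542). IL1RAP, the co-receptor of interleukin-1, was at −0.49 and lost its call without any one vehicle array (0.0528 to 0.0692). The other probe set of IL1RAP was not called, and the mean of both gave −0.38 (limma adjusted p = 0.0167).

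Of 39 measured textbook targets of NF-kappaB other than the 9 genes, 16 rose (41.0%, against 15.6% of all genes) and 1 fell (2.56%, against 13.6%). The other 22 were not called, and the list's median log2 fold change was 0.28. The 4 called genes with the largest changes are described here. CCL20, a chemokine gene, read 632, 613 and 537 with PD0332991, against 110, 123 and 134 with vehicle, a log2 fold change of 2.14 (SE 0.10). LTA, which encodes lymphotoxin-alpha, read 297, 310 and 304 with PD0332991, against 93.9, 64.2 and 95.9 with vehicle, a log2 fold change of 1.68 (SE 0.14). Both groups of arrays were far apart for CCL20 and for LTA. TNF, whose product activates NF-kappaB, read 410, 377 and 339 with PD0332991, against 155, 150 and 155 with vehicle, a log2 fold change of 1.20 (SE 0.08). CD69, an early activation marker, rose by 1.24 on the log2 scale. The limma adjusted p was 4.85e-05 for CCL20, 3.68e-04 for LTA, 1.85e-04 for TNF and 1.55e-04 for CD69. SOD2, the gene for the mitochondrial superoxide dismutase, was the gene that fell, by 0.59 on the log2 scale on its 1 named probe set, and is named after its value was seen. Many of these targets also answer to other factors, such as those downstream of the T cell receptor, so a list of this kind is not a measure of NF-kappaB activity. This list, too, was drawn up with earlier results of these data known.

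**Figure D3:**
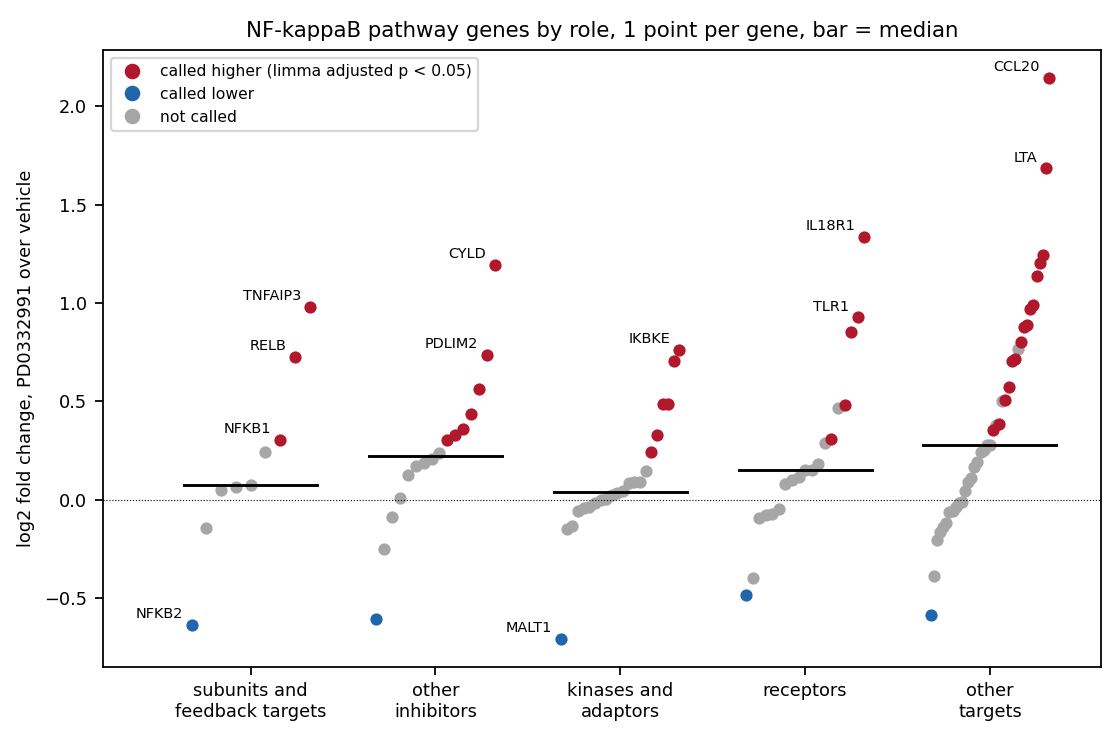
Log2 fold change, PD0332991 over vehicle, of the 9 subunit and feedback genes and of the genes in the further lists, with 1 point per gene, the call in colour and a bar at each list's median. The medians are 0.07 for the 9 genes, 0.22 for other inhibitors, 0.04 for kinases and adaptors, 0.15 for receptors and 0.28 for other targets.

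Only genes with a mean log2 value above the median of all genes were compared with TNFAIP3 here. Of these, SHROOM2, TMC6 and EMILIN2 had the closest profiles over the 6 arrays. Their root mean square differences from TNFAIP3 were 0.03, 0.04 and 0.04, between log2 values centred on each gene's mean. Their log2 fold changes were 1.00, 1.01 and 1.05. The measure runs over 2 groups of 3 arrays, so genes of like fold change are close by construction. With IDs of the suffix _x_at or _s_at not used, another probe set stood for EMILIN2 and gave 0.06 (adjusted p = 0.700).

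The fold changes of TNFAIP3, RELB and NFKB1 passed under every alternative in which the gene was measured, while NFKB2 did not. TNFAIP3 ranged from 0.94 to 1.06 with adjusted p up to 0.00460 over 20 alternatives, RELB from 0.51 to 0.84 with adjusted p up to 0.0108 over 21, and NFKB1 from 0.28 to 0.35 with adjusted p up to 0.0447 over 21. NFKB2 ranged from −0.76 to 0.16, the positive value being that of the dim probe set 209636_at. RELA, NFKBIA, NFKBIE and NFKBIZ ranged from 0.01 to 0.14, −0.17 to 0.15, 0.16 to 0.33 and 0.01 to 0.41.

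**Figure D4:**
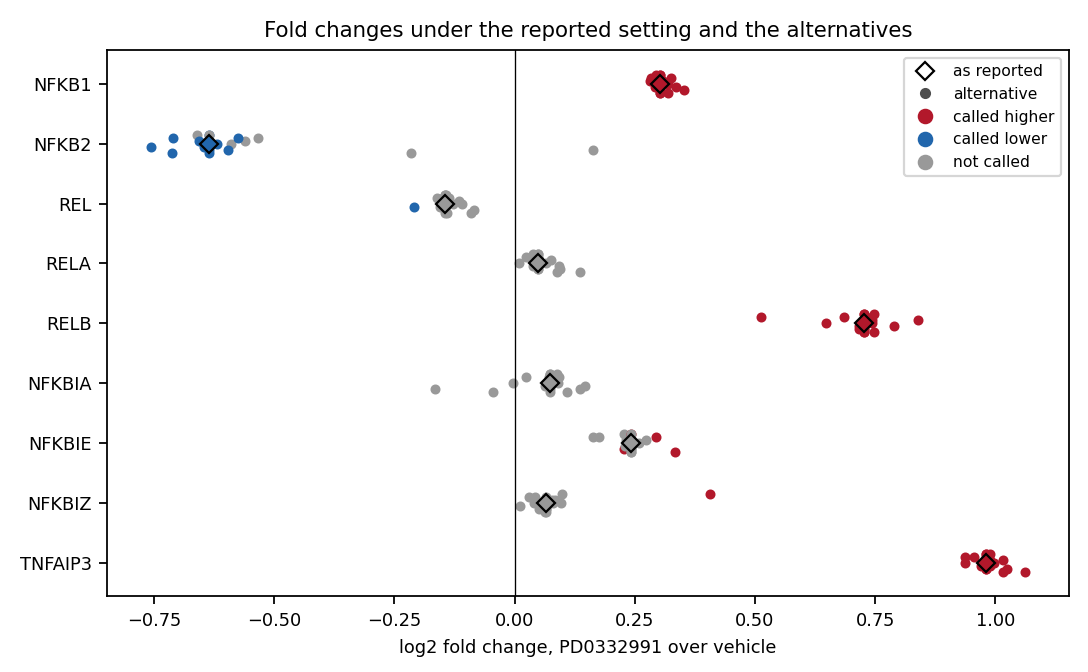
Log2 fold change, PD0332991 over vehicle, of the 9 genes as reported (diamonds) and under each alternative setting (small points, offset up and down only to keep them apart), coloured by the call. TNFAIP3, RELB and NFKB1 stay right of 0 and called, and NFKB2 has uncalled points and 1 point right of 0.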

How the data were processed

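Biotin-labelled material prepared from total RNA of KOPTK1 cells was hybridised to 6 Affymetrix arrays, per the labels' protocols. The authors deposited intensities on a linear scale, already summarised to 1 value per probe set, between 0.56 and 16362. The sources used here do not give their summarisation, background correction or scaling, and the linear scale was inferred from the values. Of all values, 25.5% lay below 16, and without detection calls a dim probe set cannot be told from background. The values are relative within an array, so total RNA per cell is not measured.

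Control probe sets (62) were not tested. Of the other 54613, the platform annotation of 2016 named 1 symbol for 41091, several for 1801 and none for 11721. Gene IDs were looked up in the RefSeq table of GRCh38.p14 for current symbols, and 54 probe sets kept the old one. Values were compared as log2(intensity + 16), which understates changes of dim genes, by limma 3.58.1 (R 4.3.3, lmFit then eBayes, two-sided, 4 residual degrees of freedom). Benjamini-Hochberg adjustment ran over 19775 genes, or over 54613 probe sets where a probe set other than a gene's brightest is given. The same calls were recomputed with each array omitted, with the replicate number as a block, and with other scalings, pseudocounts, filters on dim genes, choices of probe set, variance settings and thresholds. Named from the further lists are IKBKB, CHUK, IKBKG, NFKBIB, TRAF1 and the 4 largest changes past the threshold in each list. The genes, lists and tests were chosen with earlier results of these data known, and the promoter motifs after the sequences were seen. Figures were drawn with matplotlib 3.10.9.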

Additional observations from a re-analysis of the deposited data

How the results depend on the processing

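The number of the 9 genes called higher was 3, and 2 to 4 under the 21 alternatives: NFKBIE was added without vehicle replicate 3, by quantile normalization, among brighter genes and with array weights, NFKBIZ was added by the mean of probe sets, and TNFAIP3 had no probe set left when those with the suffix _x_at or _s_at were dropped. The number called lower was 1, and 0 to 2 with 1 array left out. It was 0 with the mean of probe sets (NFKB2 at −0.22, adjusted p = 0.0847), 0 when those with the suffix _x_at or _s_at were dropped (NFKB2 at 0.16, adjusted p = 0.449, from another probe set) and 0 at an adjusted p under 0.01. With the replicate number as a block the counts were 3 higher and 1 lower. Same-numbered arrays had deviations from their group means that correlated at 0.00, 0.08 and 0.08 across genes, not every array correlated best with its own number, and the numbers were not taken as pairs. The number of calls over all genes moved as well, and gained or lost calls are to be read beside it. With 1 array left out, 4257 to 5689 of all 19775 genes passed, against 5786 as reported. With quantile normalization 6035 passed, with array weights 6738, with a pseudocount of 64 6403 and with a trend 6460. Among brighter genes, 6141 of 9887 passed. At an adjusted p under 0.01, 3523 of all genes passed in place of 5786, and the higher counts were 4 for other inhibitors and 2 for receptors. Other inhibitors lower numbered 2, with NFKBIB, without vehicle replicate 3, with a pseudocount of 64, among brighter genes, with a trend and with array weights. Receptors lower numbered 0 without any one vehicle array and at 0.01, and other targets lower 2 without vehicle replicate 2 and 0 at 0.01. The causes were not tested. The number of arrays and the lack of detection calls limit what can be said of RELB, NFKBIE and NFKBIZ, whose intensities were the lowest of the 9 genes. RELB and NFKBIE were still among the brighter genes of the array, and NFKBIZ was not.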
